A study of Mus musculus with 18 samples.

Results

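The genes described here are 10 genes of contraction and calcium handling in fast-twitch muscle fibres: Tnnt3, Tnni2 and Tnnc2 of the troponin complex, the myosin light chain genes Mylpf and Myl1, Mybpc2, Actn3, and the calcium genes Atp2a1, Casq1 and Pvalb. They were picked by symbol as the fast fibre forms of these proteins, from 48709 listed genes, of which 31665 have an exon length above 0. The choice was made with earlier results of these data known. All 10 were present in every library and passed the filter on low counts. RNA-seq was made from whole quadriceps of 18 mice, with 1 library per mouse, in an untreated cohort of 7 and a treatment cohort of 11.

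The dyW mice carry the Lama2tm1Eeng allele on a C57BL/6J-derived strain background, B6.129S1(Cg)-Lama2tm1Eeng/J. This allele disrupts the laminin alpha 2 gene, and the mice model the congenital muscular dystrophy LAMA2-CMD. Healthy C57BL/6J mice served as wild type (WT). The groups were untreated dyW (n = 4) and untreated WT (n = 3), dyW given TD139 (n = 3) and dyW given PBS (n = 3), and WT given TD139 (n = 2) and WT given PBS (n = 3). TD139 is an inhibitor of galectin-3, and PBS is its vehicle by the group names. Untreated mice are labelled as 5 weeks old and treated mice as 3 weeks old, while the collection protocol of both cohorts names 5 weeks, which leaves the treated mice without a sure age. The labels give no dose, route or length of the TD139 treatment. The 2 cohorts differ in treatment and age label together, so genotypes and treatments were compared within a cohort.

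Skeletal muscle fibres use distinct gene sets for fast and slow twitch. When a fibre is excited, calcium leaves the sarcoplasmic reticulum, where calsequestrin holds it, and binds troponin C, after which troponin I and troponin T let myosin reach the thin filament. The calcium pump SERCA returns calcium to the reticulum, and parvalbumin buffers it in the cytosol of the fastest fibres, so relaxation is quick. The mouse quadriceps is mostly fast-twitch muscle.

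Each library held 15.8 to 45.2 M (mega) exon reads, and dyW PBS replicate 1 was the shallowest. The 10 genes had 65790 to 1355939 reads per gene and library, at least 99.999% of them uniquely placed, so counting error was small beside the spread between mice. Lama2 was lower in untreated dyW than in untreated WT (log2 fold change −3.29, SE 0.19, edgeR adjusted p = 6.7e-05), and also in dyW PBS against WT PBS (−2.67, SE 0.28, adjusted p = 0.000912) and in dyW TD139 against WT TD139 (−2.17, SE 0.29, adjusted p = 0.00872). All 7 markers of skeletal muscle fibre were read in every group, with summed levels between 21593 and 42545 RPKM (reads scaled to exon length and to the mapped reads of the library). By edgeR, 4 of these 7 were lower in untreated dyW than in untreated WT and 1 was higher. Of all genes tested, 25.1% were lower and 24.7% were higher. The median log2 fold change of the 7 markers was −1.40, against −1.21 for the 10 genes. In whole tissue, fewer fibres of a type and less RNA per fibre cannot be told apart. The library of WT PBS replicate 1 stood apart: Myh7, the slow myosin heavy chain gene, was at 442 RPKM there, against 0.0638 and 0.0207 RPKM in WT PBS replicates 2 and 3. Nerve and Schwann cell markers were also high in that library: Mbp was at 43.4 RPKM, against 2.85 and 2.39 RPKM in the other WT PBS libraries. In untreated dyW, replicates 3 and 4 had Myh7 at 236 and 291 RPKM, and replicates 1 and 2 had it at 0.807 and 21.0 RPKM. Values without these libraries are given beside the results they moved.

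The 10 genes were among the most abundant transcripts of the muscle. By mean RPKM, they ranked between 8 and 42 among all genes in untreated dyW and between 6 and 30 in untreated WT. Mylpf, the fast regulatory light chain gene, led in both groups, at 7926 ± 1330.1 RPKM in untreated dyW (SD, n = 4) and 12424 ± 1313 RPKM in untreated WT (SD, n = 3). In WT the order after it was Pvalb, Tnnt3, Tnnc2, Atp2a1, Myl1, Tnni2, Actn3, Casq1 and Mybpc2. In untreated dyW the order after it was Tnnc2, Tnnt3, Atp2a1, Pvalb, Myl1, Tnni2, Casq1, Actn3 and Mybpc2. Pvalb thus took place 5 in untreated dyW and place 2 in untreated WT, and it took place 2 in each treated group. Neighbours in the dyW order overlapped between libraries, except Tnni2 and Casq1. In untreated WT the ranges of Atp2a1 and Myl1, Myl1 and Tnni2, Tnni2 and Actn3, and Casq1 and Mybpc2 were apart, and those of the other neighbours overlapped.

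**Figure D1:**
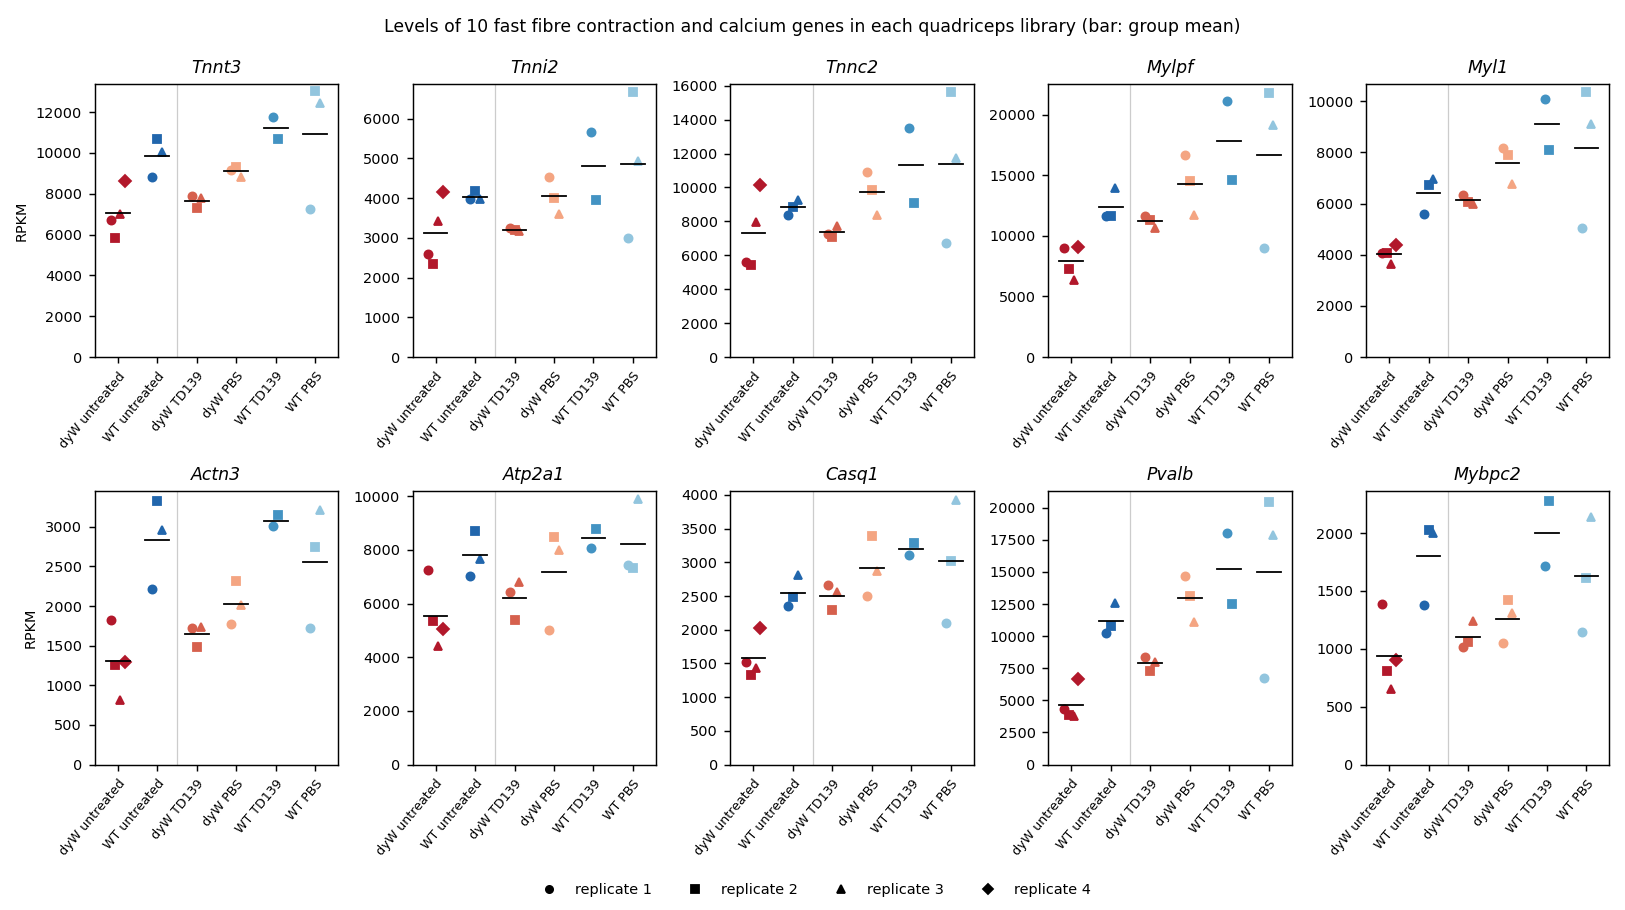
Each panel shows the RPKM (linear axis from 0) of 1 gene in each library, grouped by genotype and treatment, with replicate shown by marker shape and the group mean as a bar. Pvalb was at 3803 to 6628 RPKM in untreated dyW and at 10240.3 to 12562 RPKM in untreated WT, and the circle of WT PBS replicate 1 lies at the bottom of its group for 9 of the 10 genes.

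Their promoters are shown because the 10 genes were lower together in untreated dyW. Of the 10 genes, 7 matched an entry of the RefSeq promoter table (GRCm38.p6), and Tnnt3, Tnni2 and Actn3 did not. The 250 bases before each start were searched on both strands for the E-box CANNTG, which is bound by myogenic factors such as MyoD, for the MEF3 site TCAGGTT, known from promoters of muscle genes, for the TATA box TATAAA, and for the MEF2 site and the CArG box of serum response factor. An E-box was in 6 of the 7 member promoters and in 66.2% of the 32851 promoters in the table. A MEF2 site was in 1 of 7, that of Pvalb, and in 2.92% of all promoters. The exact TATA box string was in 1 of 7, that of Myl1, and in 12.4% of all promoters. The Myl1 match lay on the strand opposite to the gene, at −95 to −90, and variants of the string were not searched. The CArG box and the MEF3 site were in 0 of 7, and in 1.47% and 3.49% of all promoters. No matches of different motifs overlapped each other in the 7 promoters. The shares are a description of these letters and not of binding. The 200 bases before the start of 4 members follow, on the minus strand of GRCm38.p6 at chr15:78206401-78206600 for Pvalb, chr1:172219896-172220095 for Casq1, chr7:126463074-126463273 for Atp2a1 and chr2:164779735-164779934 for Tnnc2. Capitals mark the MEF2 site in Pvalb and the E-boxes in the other 3; the Pvalb window is the one at the deposited gene start.
Pvalb: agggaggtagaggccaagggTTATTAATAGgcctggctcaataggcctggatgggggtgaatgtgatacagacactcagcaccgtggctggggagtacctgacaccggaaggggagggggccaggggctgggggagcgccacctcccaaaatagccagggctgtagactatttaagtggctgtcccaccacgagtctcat
Casq1: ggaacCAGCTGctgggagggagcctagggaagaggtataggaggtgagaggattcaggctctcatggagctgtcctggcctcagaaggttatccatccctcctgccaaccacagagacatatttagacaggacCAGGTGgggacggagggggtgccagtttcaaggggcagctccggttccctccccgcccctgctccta
Atp2a1: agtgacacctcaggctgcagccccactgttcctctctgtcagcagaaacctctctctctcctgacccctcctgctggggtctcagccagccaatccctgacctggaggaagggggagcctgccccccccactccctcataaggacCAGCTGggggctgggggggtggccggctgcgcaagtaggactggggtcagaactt
Tnnc2: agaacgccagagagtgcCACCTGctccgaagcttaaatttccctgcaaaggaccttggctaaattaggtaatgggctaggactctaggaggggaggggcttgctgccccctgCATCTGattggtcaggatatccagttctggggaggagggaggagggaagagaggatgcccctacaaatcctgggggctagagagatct

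The comparison of untreated dyW with untreated WT asks how the diseased muscle differs from healthy muscle. All 10 genes were lower in dyW by edgeR's quasi-likelihood test after TMM scaling. Under scaling to 12 pan-muscle genes 3 of 10 were called lower, where 4.32% of all genes were, 9 stayed below 0 and Tnnc2 turned to 0.0475, and the median of the 10 was −0.35. Log2 fold changes ran from −1.81 for Pvalb to −0.84 for Tnnc2, with a median of −1.21 against 0.03 over all genes tested and adjusted p between 0.000751 and 0.0192. Of the 14846 genes tested, 25.1% were called lower and 49.8% were called in either direction. The 10 genes together took 8.51%, 6.92%, 6.80% and 8.78% of all exon reads in the 4 dyW libraries and 10.996%, 12.9% and 12.8% in the 3 WT libraries.

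The troponin genes encode the calcium switch of the thin filament. Tnnt3, encoding the fast troponin T that anchors the complex to tropomyosin (ENSMUSG00000061723, mm10 chromosome 7, 142498836 to 142516009), was at 6733, 5813, 7032 and 8616 RPKM in dyW and at 8842, 10696 and 10026 RPKM in WT. All 4 dyW libraries were below the 3 WT libraries, and the log2 fold change was −1.04 (SE 0.21, adjusted p = 0.00368). Tnni2, encoding the fast inhibitory subunit troponin I (ENSMUSG00000031097, chromosome 7, 142441808 to 142444410), was at 2602, 2352, 3414 and 4149 RPKM in dyW and at 3969.7, 4173 and 3976 RPKM in WT. The RPKM ranges overlapped through dyW replicate 4, and the TMM-scaled log2 fold change was −0.92 (SE 0.22, adjusted p = 0.00809). Tnnc2, encoding the fast calcium-binding subunit troponin C (ENSMUSG00000017300, chromosome 2, 164777161 to 164779967), was at 5605, 5435, 7982 and 10120.1 RPKM in dyW and at 8379, 8870.4 and 9287 RPKM in WT. Replicate 4 of dyW was above all WT libraries on the RPKM scale. The log2 fold change of Tnnc2 was −0.84 (SE 0.24, adjusted p = 0.0192), the smallest of the 10, and its call ended in 3 of the 7 fits that left out 1 library, without untreated WT replicate 2 (adjusted p = 0.0609), without untreated WT replicate 3 (adjusted p = 0.0659) and without untreated dyW replicate 2 (adjusted p = 0.0509).

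Among the thick filament genes, Mylpf, encoding the fast regulatory light chain of myosin (ENSMUSG00000030672, chromosome 7, 127208890 to 127214298), was at 9008, 7280.2, 6361 and 9053 RPKM in dyW and at 11679, 11653 and 13940.0 RPKM in WT. The groups did not overlap, and the log2 fold change was −1.19 (SE 0.22, adjusted p = 0.00263). Myl1, encoding the fast essential light chains (ENSMUSG00000061816, chromosome 1, 66924295 to 66945404), was at 4066, 4060.1, 3618 and 4386 RPKM in dyW and at 5609, 6721 and 6953 RPKM in WT. It varied least among the dyW libraries, with a coefficient of variation of 7.82%, and the log2 fold change was −1.23 (SE 0.20, adjusted p = 0.00134). Mybpc2, encoding the fast myosin-binding protein C of the A-band (ENSMUSG00000038670, chromosome 7, 44501699 to 44524656), was at 1389, 806, 649 and 902 RPKM in dyW and at 1378, 2025 and 2005 RPKM in WT. It varied most among the dyW libraries, with a coefficient of variation of 34.1%, and dyW replicate 1 reached the level of WT replicate 1. The log2 fold change of Mybpc2 was −1.49 (SE 0.32, adjusted p = 0.00537).

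Actn3, encoding alpha-actinin-3, which cross-links actin at the Z-disc of fast fibres (ENSMUSG00000006457, chromosome 19, 4861223 to 4877909 as deposited), was at 1828, 1259, 820.3 and 1295 RPKM in dyW and at 2211, 3325 and 2962 RPKM in WT. Every dyW library was below every WT library, and the log2 fold change was −1.67 (SE 0.32, adjusted p = 0.00316).

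The calcium genes differed in the size of their fall. Pvalb, encoding the cytosolic calcium buffer parvalbumin (ENSMUSG00000005716, chromosome 15, 78191114 to 78206400), was at 4331, 3874, 3803 and 6628 RPKM in dyW and at 10240.3, 10778 and 12562 RPKM in WT. The highest dyW library was far below the lowest WT library, and the log2 fold change of −1.81 (SE 0.26, adjusted p = 0.000751) was the largest fall of the 10. Casq1, encoding the skeletal calsequestrin that stores calcium in the sarcoplasmic reticulum (ENSMUSG00000007122, chromosome 1, 172209894 to 172219868), was at 1519, 1334, 1431 and 2024 RPKM in dyW and at 2346, 2491 and 2816 RPKM in WT. The groups did not overlap, and the log2 fold change was −1.24 (SE 0.21, adjusted p = 0.00165). Atp2a1, encoding the fast calcium pump SERCA1 (ENSMUSG00000030730, chromosome 7, 126445858 to 126463108), was at 7271, 5360.3, 4409 and 5052 RPKM in dyW and at 7040.5, 8715 and 7658 RPKM in WT. Its RPKM ranges overlapped through dyW replicate 1, and the log2 fold change was −1.04 (SE 0.25, adjusted p = 0.00916). Without untreated dyW replicates 3 and 4, an alternative chosen after seeing the data, the call of Atp2a1 ended (−0.77, adjusted p = 0.0867), and the other 9 genes were called lower, where 19.6% of the genes tested were.

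**Figure D2:**
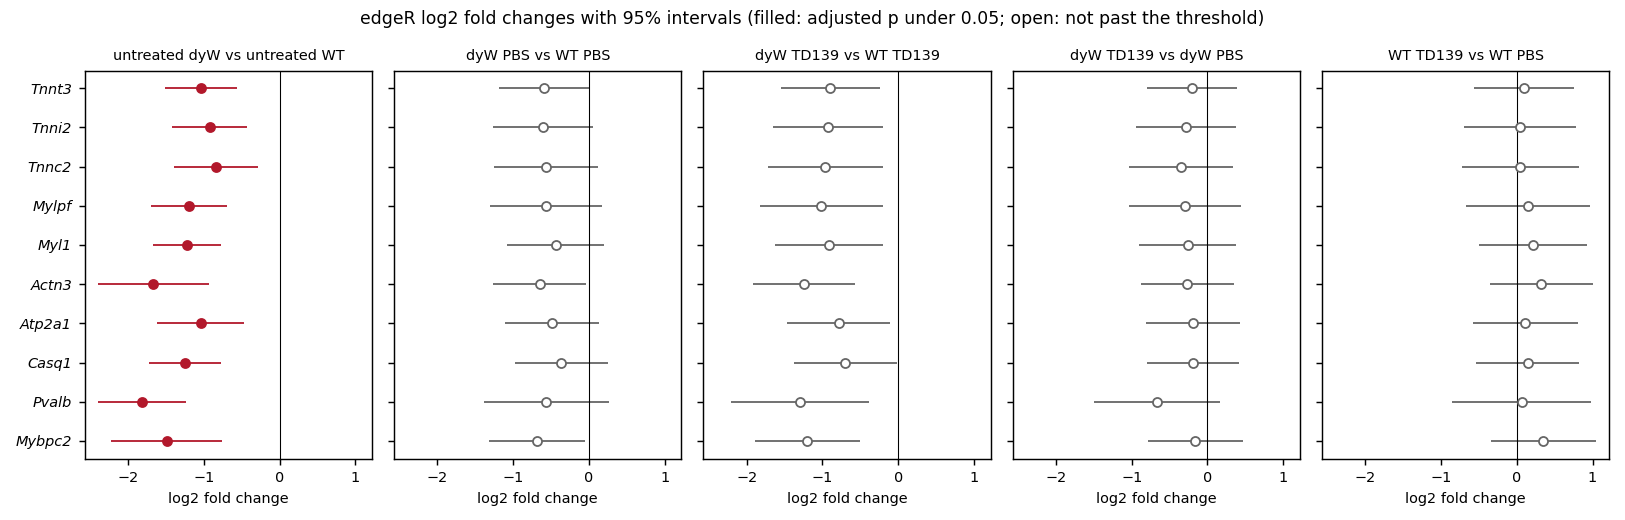
Each panel gives the log2 fold change of the 10 genes in 1 comparison (horizontal axis), as points with 95% intervals from edgeR after TMM scaling; filled points passed an adjusted p of 0.05. All 10 points are filled and between −1.81 and −0.84 in untreated dyW against untreated WT (Tnnc2 is at 0.0475 under pan-muscle scaling), and all points of the 4 comparisons in treated mice are open.

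The calls and fold changes of the 10 genes differed between scalings and tests. On log2 CPM, the counts scaled to library size, after TMM scaling, all 10 genes had every dyW library below every WT library, against 25.6% of all genes tested, and on RPKM 6 of 10 did, against 9.94%. Limma on log2(RPKM + 0.1), which changes both the test and the scaling, called 4 of 10 lower, where 8.71% of all genes were lower, and those 4 were Actn3, Casq1, Pvalb and Mybpc2. With a pseudocount of 1 the count was 5, with Myl1 added, where 8.68% were lower. Scaling to 12 pan-muscle genes called 3 of 10 lower, where 4.32% of all genes were lower, and those were Actn3, Pvalb and Mybpc2. Under pan-muscle scaling Tnni2 was at −0.046, Tnnt3 at −0.16 and Atp2a1 at −0.20, and Tnnc2 was at 0.0475. These scalings moved the median of all genes to 0.51 (RPKM) and 0.89 (pan-muscle), against 0.03 after TMM. The median of the 10 genes was −1.21 after TMM scaling, −0.66 on RPKM and −0.35 under pan-muscle scaling; a scaling moves every gene of a library alike, so its distance from the median of all genes stayed near −1.24 by construction (−1.17 on RPKM). Of the 12 pan-muscle genes themselves, 8 were lower and 3 were higher after TMM (Des at 0.88, Cav3 at 0.65 and Klhl41 at 0.41). Their median was −0.98, and 25.1% of all genes were lower and 24.7% higher. The last of them, Acta1, the skeletal actin gene, was at −0.52 after TMM (SE 0.20, adjusted p = 0.0629) and at 0.34 under pan-muscle scaling.

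**Figure D3:**
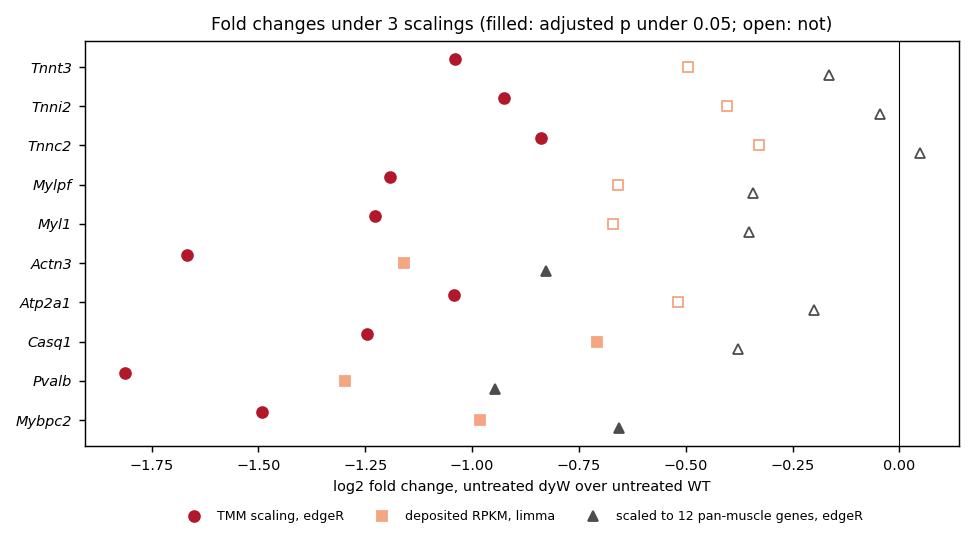
The log2 fold change of untreated dyW over untreated WT (horizontal axis) is shown for each gene under 3 scalings, with filled symbols where the adjusted p was under 0.05. Actn3, Pvalb and Mybpc2 are filled under all 3 scalings, and Tnnc2 is at −0.84 after TMM, −0.33 on RPKM and 0.0475 under pan-muscle scaling.

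Ratios between 2 of the 10 genes within a library do not depend on that scaling; the 4 ratios computed were chosen after values were seen and carry no test. The Pvalb level was 0.481, 0.532, 0.598 and 0.732 times that of Mylpf in untreated dyW, against 0.877, 0.925 and 0.901 times in untreated WT. Every dyW library was below every WT library in this ratio. The level of Tnnc2 was 3.07, 4.32, 9.73 and 7.82 times that of Actn3 in untreated dyW, against 3.79, 2.67 and 3.14 times in untreated WT. The high values were those of dyW replicates 3 and 4, the libraries with high Myh7. In the Tnni2 to Mybpc2 ratio the same libraries were at 5.26 and 4.60, against 1.87 and 2.92 in dyW replicates 1 and 2 and 1.98 to 2.88 in WT. WT PBS replicate 1, where Myh7 was also high, was not the highest of its group in either ratio. Its Tnnc2 to Actn3 ratio was 3.91, against 5.69 and 3.66 in WT PBS replicates 2 and 3. Its Tnni2 to Mybpc2 ratio was 2.61, against 4.14 and 2.30. The Casq1 level was 0.209, 0.249, 0.325 and 0.401 times that of Atp2a1 in untreated dyW, against 0.333, 0.286 and 0.368 times in untreated WT, and the groups overlapped in this ratio and in the 2 before it.

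The 9 paralogs of these genes from slow, cardiac or other muscle are called slow paralogs here. Of them, 6 rose in untreated dyW and 0 fell, with a median log2 fold change of 3.07, where 24.7% of all genes tested rose. Actn2 and Mybpc1 were abundant in untreated WT too, at 56.0 to 223 and 118 to 388 RPKM, against 0.0658 to 4.29 RPKM for Tnni1. Without dyW replicates 3 and 4, an alternative chosen after seeing the data, 3 rose (Actn2, Atp2a2 and Tnni1), with a median of 1.53, where 21.7% of all genes rose, and Myl2 and Myl3 turned to −0.42 and −0.40. The count was also 9 without WT replicate 1, 4 without WT replicate 2, 3 without WT replicate 3 and 4 without dyW replicate 3. Actn2, the other muscle alpha-actinin gene, rose by 1.91 (SE 0.38), Atp2a2, the slow and cardiac SERCA2 pump gene, by 2.09 (SE 0.47), and Casq2, the cardiac calsequestrin gene, by 2.00 (SE 0.63). The slow troponin genes Tnni1, Tnnt1 and Tnnc1 rose by 5.04 (SE 1.29), 5.13 (SE 1.51) and 4.93 (SE 1.55). Tnnt1 was at 19.2, 78.5, 429 and 507 RPKM in dyW and at 13.5, 0.227 and 2.12 RPKM in WT, so the level differed widely within each group. The slow light chain genes Myl3 (3.29, SE 1.86, adjusted p = 0.169) and Myl2 (3.07, SE 1.85, adjusted p = 0.193) and the slow Mybpc1 (0.53, SE 0.32, adjusted p = 0.192) did not pass.

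The fast gene remained more abundant than its paralog in nearly all libraries. Actn3 was 2.91, 2.25, 0.932 and 1.77 times as abundant as Actn2 in untreated dyW, against 9.91, 59.3 and 26.0 times in untreated WT. In dyW replicate 3 the 2 actinin genes were about level. Casq1 was 32.0, 20.3, 13.9 and 17.6 times as abundant as Casq2 in dyW, against 72.5, 647 and 343 times in WT. Atp2a1 was 278, 109, 42.8 and 42.5 times as abundant as Atp2a2 in dyW, against 468, 925 and 688 times in WT. Of the 9 pairs, 7 had every dyW ratio below every WT ratio. No share over other gene pairs was computed to set beside this count or those of the treated groups. The median log2 ratio over the 9 pairs was 7.91, 6.21, 4.13 and 4.14 in the dyW libraries and 8.37, 15.09 and 12.19 in the WT libraries, and WT replicate 2 had as few as 5 reads of Tnnc1, 9 of Tnni1 and 12 of Myl2.

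**Figure D4:**
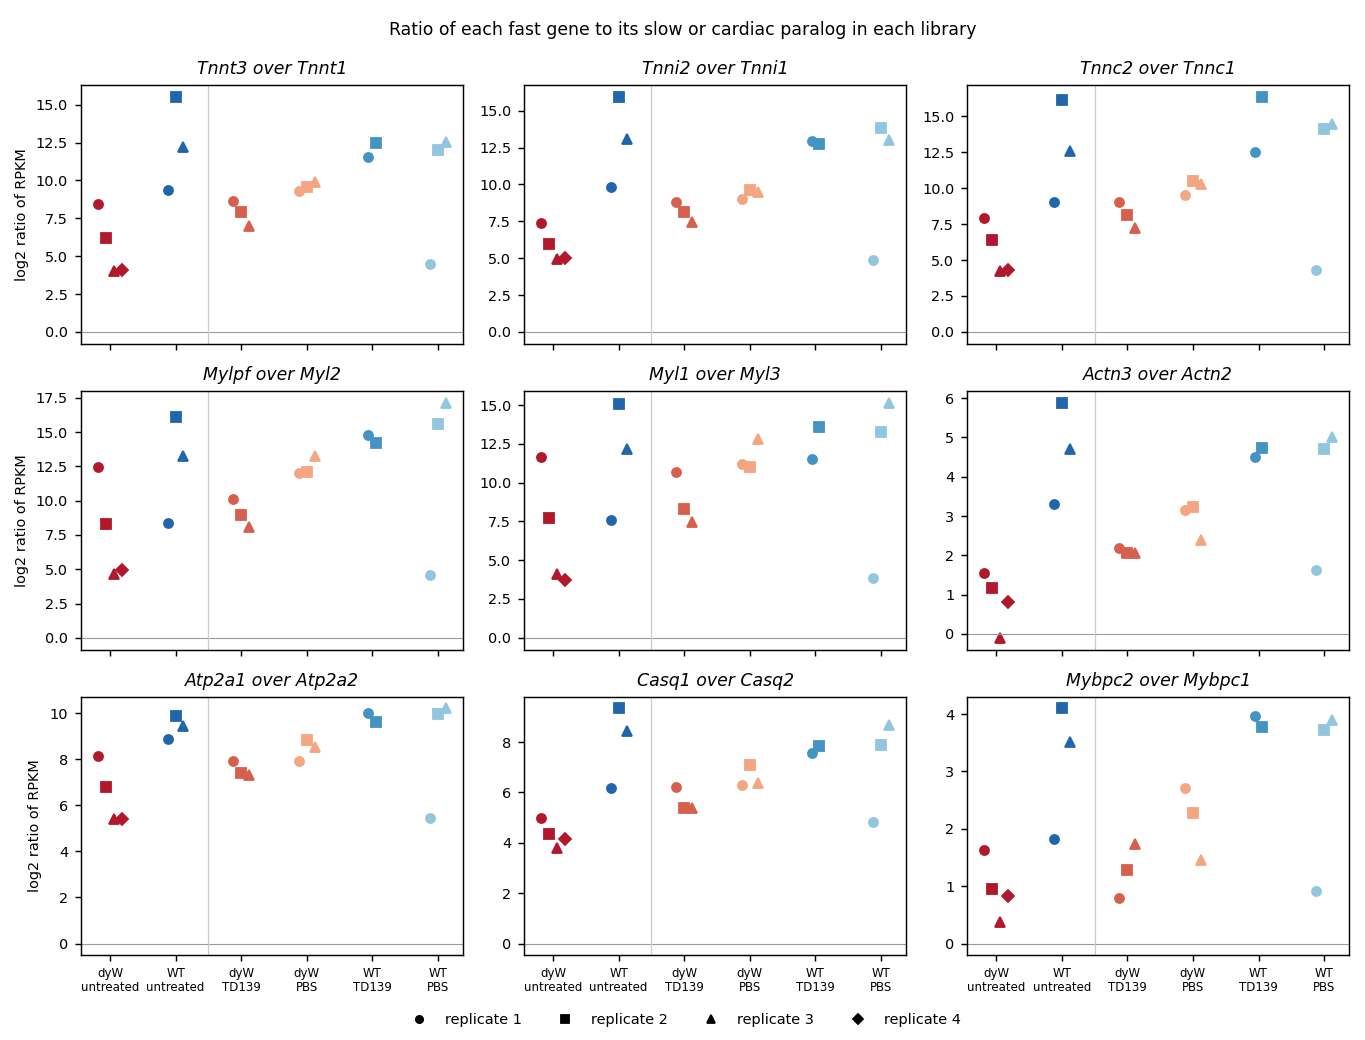
Each panel gives the log2 ratio of the RPKM of a fast gene to that of its slow, cardiac or other muscle paralog in each library, by group. The replicate is shown as marker shape. In WT PBS replicate 1 the median over the 9 pairs was 4.45, near the 4.13 and 4.14 of untreated dyW replicates 3 and 4, against 11.996 and 12.54 in the other WT PBS libraries.

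Of 14 other genes listed for fast fibre contraction, which include the cardiac Actc1 and Tnnt2, 9 fell and 2 rose in untreated dyW. Their median was −1.36, and 25.1% of all genes fell and 24.7% rose. Under pan-muscle scaling 7 fell and 4 rose, with a median of −0.49, where 4.32% and 65.5% of all genes did. Without WT replicate 1, 10 fell and 4 rose, where 22.9% and 21.2% of all genes did. Myh4, the type IIB myosin heavy chain gene, was at 4889, 2616, 1901 and 3322 RPKM in dyW and at 7685, 13117 and 11449 RPKM in WT. Its groups did not overlap, and its log2 fold change was −2.30 (SE 0.39, adjusted p = 0.00171). Myoz3, a Z-disc protein gene of fast fibres, fell by 1.53 on the log2 scale (SE 0.23), and Actc1, cardiac alpha-actin, fell by 2.79 (SE 0.35). Tnnt2, the cardiac and embryonic troponin T gene, rose by 4.70 (SE 0.50), and Smtnl1 rose by 2.24 (SE 0.55), though without dyW replicates 3 and 4 Smtnl1 was at 1.73 with adjusted p = 0.0549. Myh2, the type IIA myosin gene, was at 1.77 (SE 0.86, adjusted p = 0.117) and Myh1, the type IIX gene, at 0.65 (SE 0.36, adjusted p = 0.169).

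Of 25 genes of calcium release and uptake, 20 fell and 2 rose in untreated dyW, with a median of −1.13, where 25.1% and 24.7% of all genes did. Under pan-muscle scaling 10 fell and 7 rose, with a median of −0.297, where 4.32% and 65.5% of all genes did. Those 2 that rose after TMM scaling encode inhibitors of the SERCA pump: Sln, sarcolipin, was at 149, 213, 317 and 349.9 RPKM in dyW and at 2.62, 0.358 and 1.10 RPKM in WT. The groups were far apart (log2 fold change 7.04, SE 0.57, adjusted p = 0.000132), and Pln, phospholamban, rose by 2.37 (SE 0.26, adjusted p = 0.000308). Among those that fell was Stac3, which is needed for coupling of excitation to calcium release (−1.39, SE 0.13). Mrln, encoding the SERCA inhibitor myoregulin, fell (−2.07, SE 0.27), and so did Ryr1, the calcium release channel gene (−1.45, SE 0.27), the 2 being named after their values were seen.

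Of 16 regulators of fast fibre genes, 13 fell and 0 rose, with a median of −0.99, where 25.1% and 24.7% of all genes did. Under pan-muscle scaling 5 fell and 3 rose, with a median of −0.13, where 4.32% and 65.5% of all genes did. Mef2a, Nfatc1, Prox1 and Nfix were among those that turned above 0 under that scaling. Sox6, a repressor of slow fibre genes, fell by 2.31 on the log2 scale (SE 0.26), Mafa, an activator of type IIB myosin, by 1.91 (SE 0.24), Eya1, a transcriptional cofactor, by 1.70 (SE 0.18) and Mef2c, a MEF2 factor, by 1.08 (SE 0.14). These lists overlap in function with the 10 genes and share their libraries and scaling.

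Markers of other cells moved with these results, and their part in them was not tested. In untreated dyW, 8 of 8 macrophage markers rose, with summed levels of 505 to 704 RPKM in dyW and 65.4 to 110.2 RPKM in WT. Of 7 markers of regenerating fibres, 6 rose and Actc1 fell; because Actc1 is abundant, their sum was 617 to 969.7 RPKM in dyW and 2101 to 3789 RPKM in WT. These counts stand beside 24.7% of all genes called higher after TMM scaling. Fibroblast markers rose in 3 of 6, with summed levels of 1225 to 2312 RPKM in dyW and 665 to 809.7 RPKM in WT. Adipocyte markers rose in 2 of 5 (727 to 4048 RPKM in dyW and 199.98 to 828 RPKM in WT), nerve and Schwann cell markers in 3 of 4 (44.5 to 94.7 RPKM in dyW and 8.25 to 19.9 RPKM in WT) and endothelial markers in 1 of 4 (54.6 to 72.3 RPKM in dyW and 32.6 to 43.5 RPKM in WT). Under pan-muscle scaling, where 65.5% of all genes were called higher, 6 of 6 fibroblast, 5 of 5 adipocyte, 4 of 4 nerve and Schwann cell and 4 of 4 endothelial markers were called higher. The adipocyte count was 0 without WT replicate 2, without WT replicate 3, without dyW replicate 1 or without dyW replicate 2, and 4 without dyW replicate 4. The fibroblast count was 2 without any 1 library other than dyW replicate 1, and 4 without that one. None of these lists had a gene at 0 in all libraries of a group.

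The comparison of dyW PBS with WT PBS asks whether the difference is present in vehicle-treated mice. By edgeR 0 of 10 genes passed, 2 had an unadjusted p under 0.05 and DESeq2 also called 0, while 0.28% of the 15331 genes tested were called lower. All 10 fold changes were below 0, from −0.69 (Mybpc2, SE 0.29, adjusted p = 0.287) to −0.36 (Casq1, SE 0.28, adjusted p = 0.594), and Casq1 turned to 0.035 under pan-muscle scaling. Pvalb was at 14723, 13163 and 11115 RPKM in dyW PBS and at 6713, 20461 and 17872 RPKM in WT PBS. The WT libraries lay on both sides of the dyW libraries, and the 95% interval of the log2 fold change of −0.56 ran from −1.39 to 0.26. Actn3 was at 1769.6, 2317 and 2009 RPKM in dyW PBS and at 1718, 2742 and 3209 RPKM in WT PBS, with a log2 fold change of −0.65 (SE 0.28, adjusted p = 0.301).

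This count rested on 1 library. Without WT PBS replicate 1, 7 of 10 genes were lower in dyW PBS, where 0.891% of all genes tested were called lower; these were Tnnt3, Tnni2, Tnnc2, Mylpf, Actn3, Pvalb and Mybpc2. The median of the 10 was −0.57 with all libraries, −0.895 without WT PBS replicate 1, −0.32 without WT PBS replicate 2, −0.14 under pan-muscle scaling and −0.17 on RPKM. Their log2 fold changes then ran from −0.95 (Pvalb, adjusted p = 0.0304) to −0.87 (Tnnt3, adjusted p = 0.0228). Myl1 was at −0.74 with adjusted p = 0.0515, the closest of the other 3. WT PBS replicate 1 held 9.52% of its exon reads in the 10 genes, and the other WT PBS libraries 16.5% and 16.3%, while the dyW PBS libraries held 12.2%, 12.9% and 11.7%. Of the 9 fast to slow ratios, 0 had every dyW PBS library below every WT PBS library, and without WT PBS replicate 1 all 9 did. The slow paralogs had 0 of 9 called in dyW PBS against WT PBS, with a median of −2.56. Without that library 4 rose, with a median of 1.67, where 3.05% of all genes rose.

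**Figure D5:**
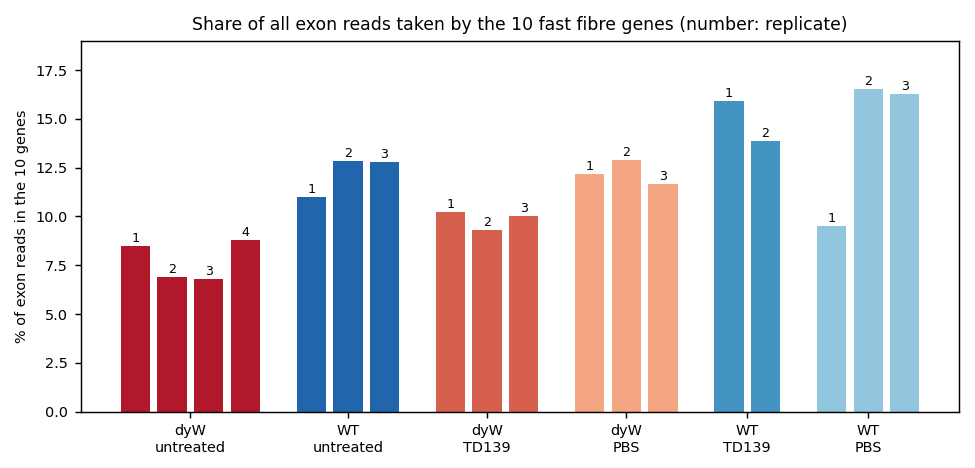
Bars give the share of all exon reads taken by the 10 genes (percent, axis from 0) in each library, with the replicate number above each bar. The share was 6.80% to 8.78% in untreated dyW and 10.996% to 12.9% in untreated WT, and WT PBS replicate 1 had 9.52%, against 16.5% and 16.3% in the other WT PBS libraries.

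The genotype difference was set against that of the untreated mice in a fit of all 18 libraries. The difference between the 2 genotype effects (PBS minus untreated) had a median of 0.72 (0.271 under pan-muscle scaling and 0.46 without WT PBS replicate 1), with 0 of 10 past the threshold by edgeR, 4 at an unadjusted p under 0.05 and 0 by DESeq2, where 1.72% of the 15771 genes tested were called. Pvalb had the largest, at 1.27 (SE 0.48, adjusted p = 0.137; 0.88 without WT PBS replicate 1), followed by Actn3 at 1.03 (SE 0.44, adjusted p = 0.177). Under pan-muscle scaling the sign turned for Tnnt3, Tnni2 and Tnnc2, the 3 troponin genes. Markers of macrophages and regenerating fibres moved in the PBS mice too: 8 of 8 macrophage markers and 5 of 7 regenerating fibre markers rose in dyW PBS, where 2.4% of all genes did. Of the 25 calcium genes 0 fell while Sln rose (3.57, SE 0.74, adjusted p = 0.0279). Without WT PBS replicate 1, 3 of the 25 fell, where 0.891% of all genes did, and Sln was at 5.51 (SE 0.39). Without that library 7 of 8 macrophage markers rose, and of 7 regenerating fibre markers 5 rose and 1 fell, where 3.05% of all genes rose.

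In dyW mice, TD139 against PBS asks whether the galectin-3 inhibitor altered these genes. By edgeR 0 of 10 passed and 0 had an unadjusted p under 0.05; DESeq2 called 0 of 10. Of all 15331 genes, 0.0% were called by edgeR, 583 had an unadjusted p under 0.05, and DESeq2 called 4. All 10 fold changes were below 0, from −0.67 to −0.16, with a median of −0.26 against −0.01 over all genes, and of −0.48 against −0.23 under pan-muscle scaling. Pvalb was at 8359.8, 7314 and 8024 RPKM in dyW TD139 and at 14723, 13163 and 11115 RPKM in dyW PBS. The TD139 libraries were all below the PBS libraries, and the log2 fold change was −0.67 (SE 0.38, 95% interval −1.49 to 0.16, adjusted p = 0.888). In the authors' deposited table for this comparison, Pvalb had a log2 fold change of −0.66, a p-value of 0.00348 and an FDR-adjusted p of 0.31.

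Mylpf was at 11625, 11298 and 10653 RPKM in dyW TD139 and at 16684, 14511 and 11759 RPKM in dyW PBS, with a log2 fold change of −0.30 (SE 0.34, adjusted p = 0.891). Tnnt3 was at 7903, 7288 and 7783 RPKM in dyW TD139 and at 9151, 9329 and 8810.3 RPKM in dyW PBS, with a log2 fold change of −0.21 (SE 0.27, adjusted p = 0.911). In both genes the TD139 libraries lay below the PBS libraries. On RPKM this held for 7 of 10 genes, against 7.09% of all genes tested, and on log2 CPM for 6 of 10, against 6.94%. Those were Tnnt3, Tnni2, Tnnc2, Mylpf, Myl1 and Pvalb on both scales, with Actn3 on RPKM only. The 10 genes took 10.2%, 9.30% and 10.006% of exon reads in dyW TD139, against 12.2%, 12.9% and 11.7% in dyW PBS.

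In 7 of 9 fast to slow pairs, every dyW TD139 ratio was below every dyW PBS ratio. The pairs Atp2a1 to Atp2a2 and Mybpc2 to Mybpc1 overlapped. The pairs share the same libraries, and no test was made of this count. The median log2 ratio over the pairs was 8.66, 7.93 and 7.25 in dyW TD139, against 9.02, 9.58 and 9.50 in dyW PBS. The Pvalb level was 0.719, 0.647 and 0.753 times that of Mylpf in dyW TD139, against 0.882, 0.907 and 0.945 times in dyW PBS. The other 3 ratios between members overlapped between these groups: that of Tnnc2 to Actn3 was 4.204, 4.77 and 4.46 in dyW TD139 and 6.16, 4.26 and 4.17 in dyW PBS. The 6.16 was that of dyW PBS replicate 1, the shallowest library. None of the 9 slow paralogs passed the edgeR test in this comparison, with a median of 1.03. Of the macrophage and regenerating fibre markers 0 passed as well.

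The comparison of dyW TD139 with WT TD139 sets 2 groups without PBS mice against each other. The PBS libraries still entered its fit, through the filter, the TMM scaling and the shared spread. By edgeR 0 of 10 genes passed, with adjusted p from 0.0804 to 0.299, all 10 had an unadjusted p under 0.05, and 0.287% of all genes tested were called lower. DESeq2 called 4 of 10 lower, where it called 1.72% of all genes lower, and edgeR on these 2 groups alone called 6 of 10, where 0.998% were lower. Fold changes ran from −1.29 (Pvalb, SE 0.42) to −0.70 (Casq1, SE 0.31), with a median of −0.95 against 0.01 over all genes, and of −0.58 against 0.33 on RPKM. All 10 had every dyW library below both WT libraries, on log2 CPM, where 17.6% of all genes did, and on RPKM, where 4.25% did. Actn3 was at 1728, 1483 and 1738 RPKM in dyW TD139 and at 3009 and 3143 RPKM in WT TD139, with a log2 fold change of −1.24 (SE 0.31, adjusted p = 0.0804). Pvalb was at 8359.8, 7314 and 8024 RPKM in dyW TD139 and at 18031 and 12468 RPKM in WT TD139. All 9 fast to slow ratios were lower in every dyW TD139 library than in both WT TD139 libraries. Of the marker lists, 2 of 8 macrophage and 3 of 7 regenerating fibre markers rose in dyW TD139 against WT TD139, where 0.757% of all genes did, and Sln rose (5.94, SE 1.03, adjusted p = 0.0224).

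In WT mice, TD139 against PBS gave fold changes between 0.04 and 0.35, with a median of 0.13 and 0 of 10 genes past the threshold by edgeR, 0 at an unadjusted p under 0.05 and 0 by DESeq2. Of all genes, 0.0% were called by edgeR, and DESeq2 called 3. Without WT PBS replicate 1 the sign turned for 8 of 10 genes, all but Actn3 and Mybpc2, and the median was −0.15; it was 0.028 to 0.37 without 1 of the other 4 WT libraries, and 0.039 under pan-muscle scaling. Of the 9 fast to slow ratios, 0 had every WT TD139 library below every WT PBS library, and 3 did without WT PBS replicate 1. Pvalb was at 18031 and 12468 RPKM in WT TD139 and at 6713, 20461 and 17872 RPKM in WT PBS, and the 95% interval of its log2 fold change of 0.07 ran from −0.85 to 0.98. The TD139 effect in dyW minus that in WT had a median of −0.42, with 0 of 10 past the threshold, 0 at an unadjusted p under 0.05, 0 by DESeq2, and 0.0% of all genes called by edgeR. The median was −0.133 without WT PBS replicate 1 and −0.66 without WT PBS replicate 2. For Pvalb it was −0.73 (SE 0.56, 95% interval −1.96 to 0.50), and −0.34 without WT PBS replicate 1.

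Across all 18 libraries the genes whose profile was most like the mean of the 10 were Ckm, muscle creatine kinase (root mean square distance 0.10 on log2 CPM), Tpm1, alpha-tropomyosin (0.13), Klhl31 and Myoz1 (both 0.15), and Ube2d1, a ubiquitin-conjugating enzyme (0.16). The median distance over 3118 genes with a mean of at least 10 RPKM was 0.61. Among the 10 genes, which entered that mean themselves, Myl1 was nearest to it (0.14) and Pvalb farthest (0.34).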

How the data were processed

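Per the labels, TRIzol RNA from 18 quadriceps entered an Illumina Stranded mRNA preparation and was read as pairs of 58 bases. The genome build was mm10, per the submitters' processing notes; the aligner and counter are not given in the sources used here. Per the file headers, the authors deposited total exon read counts, unique exon reads, exon length and RPKM for each library, and 2 tables of their own log2 fold changes with p-values. Whether a count is a read or a pair is not stated. RPKM is not corrected for composition.

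edgeR 4.0.16 (R 4.3.3) was run on the counts (quasi-likelihood F-test, TMM, filterByExpr with minimum count 10 and minimum total 15, Benjamini-Hochberg over all genes tested, adjusted p under 0.05). Adjusted p-values are edgeR's where no tool is named. One fit held the 7 untreated libraries, a second the treatment cohort as 4 groups with a shared spread, and a last all 18 libraries, for the difference between cohorts. Replicates are separate mice by their animal numbers. Alternatives used DESeq2 1.42.0, limma 3.58.1 on log2(RPKM + 0.1) and log2(RPKM + 1), RLE factors, 12 pan-muscle genes for scaling, no filter, unique reads, a sex term, other libraries in the fit, and leaving out libraries. The fits were tested on simulated data.

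The members and gene lists were chosen with earlier results of these data known. Named genes are the members, their slow paralogs, up to 4 genes with the smallest p in the untreated comparison per list, list members past the threshold with TD139, and the 5 genes with the nearest profile; others are named where a count or a library is described, and some genes that this rule picks are not reported here. Exon reads are 91.48% to 94.86% of the authors' RPKM divisor.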

Additional observations from a re-analysis of the deposited data

How the results depend on the processing

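In untreated dyW against untreated WT, the count of 10 lower genes became 4 by limma on log2(RPKM + 0.1), 5 by limma on log2(RPKM + 1) and 3 under pan-muscle scaling, and Tnnc2 reversed to 0.0475 under the last; leaving out 1 library gave 9 to 10. Over all genes, the calls of that comparison were 3671 higher and 3724 lower, against 7636 and 1293 by limma with a pseudocount of 0.1, 7434 and 1288 with 1, and 9724 and 641 under pan-muscle scaling. In dyW PBS against WT PBS, leaving out 1 library gave 0 to 7 of 10, and Casq1 reversed to 0.035 under pan-muscle scaling. In dyW TD139 against WT TD139, 0 of 10 became 4 by DESeq2 and 6 with only those 2 groups fitted. In WT TD139 against WT PBS, pan-muscle scaling reversed Tnni2 (−0.026) and Tnnc2 (−0.013); leaving out 1 library gave Tnnt3 −0.18 to 0.27, Tnni2 −0.26 to 0.37, Tnnc2 −0.27 to 0.38, Mylpf −0.19 to 0.42, Myl1 −0.092 to 0.45, Atp2a1 −0.031 to 0.33, Casq1 −0.12 to 0.44 and Pvalb −0.32 to 0.37. In the difference of genotype effects between cohorts, pan-muscle scaling reversed Tnnt3 (−0.02), Tnni2 (−0.14) and Tnnc2 (−0.19), and leaving out 1 library gave −0.03 to 0.62 for Tnnc2. The cause of these changes was not tested. DESeq2 called 864 genes in dyW PBS against WT PBS, against 411 by edgeR, and 739 against 160 in dyW TD139 against WT TD139. No paired analysis was possible because the labels give each mouse its own number. Depth limited none of the 10 genes, each with at least 65790 reads per library; the 2 to 4 mice per group set the precision.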
